A study of Rattus norvegicus with 6 samples.

Results

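The mitochondrial ribosome and the protein import machinery were examined in the pancreas of rats, as 98 genes out of 10411 read by the array. The members are the genes whose symbol on the platform annotation begins with Mrpl, Mrps, Timm or Tomm, together with Gfer. They comprise 74 genes of the mitochondrial ribosome, of which 48 have Mrpl and 26 Mrps symbols, and 24 genes of protein import. The study set the pancreas of 3 rats given ethanol in the diet beside that of 3 rats on the control diet; its question was what long-term ethanol intake does to this organ. Each rat gave 1 single-colour expression array, so the replicates are separate animals. The labels give no strain, age or sex of the rats, no dose and no feeding time, and all groups are described by diet alone. Whole pancreas was lysed, so fewer cells of a type and less RNA per cell cannot be told apart.

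Mitochondria make a small set of respiratory chain subunits themselves, on ribosomes of their own whose proteins are all encoded in the nucleus, made in the cytosol and imported. Most precursors cross the outer membrane through the translocase around Tomm40, and then reach the matrix through the presequence translocase built on Timm17 and Timm23 proteins, or the inner membrane through the carrier translocase around Timm22. Small Tim chaperones of the intermembrane space guide hydrophobic precursors across it. They and other small cysteine-rich proteins are trapped there by disulfide bonds, which are introduced by Chchd4 and the sulfhydryl oxidase Gfer. Acinar cells, the main cells of the pancreas, make digestive enzymes at a high rate and depend on mitochondria for the ATP this takes.

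Of the 98 members, 87 had a probe set above the intensity filter and were tested, 66 of the ribosome and 21 of import. In 82 of the 98 the RefSeq table of the GRCr8 rat assembly holds the promoter, taken as a window from 250 bases before to 50 bases after the start of the gene. Factors known to act at many nuclear genes for mitochondrial proteins are NRF-1, ETS family factors such as GABP, and YY1. Their cores were searched on both strands as GCGCANGCG, CCGGAAG and AAGATGGCG. The NRF-1 core was found in 18.3% of the members' windows and in 13.6% of those of the tested genes of the array. The ETS core was in 31.7% against 17.8%, and the YY1 core in 12.2% against 3.86%. The members' shares also count untested members. Over all genes of the array, tested or not, the shares were 11.9%, 15.5% and 3.43%. Over all 27457 windows of the table they were 6.26%, 9.22% and 1.93%. Between ribosomal and import members the shares were 20% and 13.6% for the NRF-1 core, 31.7% and 31.8% for the ETS core and 13.3% and 9.09% for the YY1 core. A match is a stretch of letters, not a bound site, and the letters of some cores can overlap.

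The promoters of the members that the comparison of diets turns on are given here, as the 250 bases before the start, 5′ to 3′, from RefSeq (GRCr8). Capitals mark a match to one of the cores. They are those of mrpl9 (chr2:184770817-184771066, plus strand) and Gfer (chr10:14225380-14225629, minus strand), the members that passed the test, of Mrps18b (chr20:2842756-2843005, plus strand), the next by p-value, and of Mrpl49 (chr1:212779328-212779577, minus strand), the member of smallest p among the tested members that were higher in ethanol.
mrpl9: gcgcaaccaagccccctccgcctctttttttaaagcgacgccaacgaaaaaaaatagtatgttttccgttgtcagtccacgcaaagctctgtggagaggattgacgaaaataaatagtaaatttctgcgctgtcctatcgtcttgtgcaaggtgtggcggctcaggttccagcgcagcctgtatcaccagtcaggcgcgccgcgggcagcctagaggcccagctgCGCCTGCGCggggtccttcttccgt
Gfer: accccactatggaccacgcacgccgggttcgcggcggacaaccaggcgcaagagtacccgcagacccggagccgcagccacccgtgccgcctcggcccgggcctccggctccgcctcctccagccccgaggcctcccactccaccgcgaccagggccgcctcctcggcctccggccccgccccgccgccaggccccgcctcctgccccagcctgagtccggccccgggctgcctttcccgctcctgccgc
Mrps18b: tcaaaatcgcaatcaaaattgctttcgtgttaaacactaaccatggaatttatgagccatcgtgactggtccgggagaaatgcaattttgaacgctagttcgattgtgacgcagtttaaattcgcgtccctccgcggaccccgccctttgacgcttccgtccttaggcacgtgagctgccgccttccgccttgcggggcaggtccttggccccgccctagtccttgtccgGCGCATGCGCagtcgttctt
Mrpl49: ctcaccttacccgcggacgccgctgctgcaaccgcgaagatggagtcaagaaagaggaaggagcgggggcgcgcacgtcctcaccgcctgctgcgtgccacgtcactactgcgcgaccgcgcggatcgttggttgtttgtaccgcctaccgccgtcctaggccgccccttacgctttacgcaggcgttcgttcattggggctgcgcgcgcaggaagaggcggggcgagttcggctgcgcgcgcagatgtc
The stretch before mrpl9 holds 1 NRF-1 core, that before Mrps18b holds 2 that overlap on opposite strands, and those before Gfer and Mrpl49 hold none of the cores. The Gfer stretch is made of G and C at 78.4% of its bases, against 55.2% for mrpl9, 54.4% for Mrps18b and 66.8% for Mrpl49.

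Before the members, 3 facts of the series bear on the comparison. The deposited intensities had been brought to nearly 1 distribution, with array medians of 543 or 544, and log2 values of the tested probe sets correlated with r from 0.927 to 0.963 between rats of the same diet and from 0.907 to 0.935 between diets (these are correlations over probe sets, not over independent samples). The tissue carried its defining markers: 9 of 10 acinar markers were on the array, none was at or below 0 on any array, and their summed intensity ran from 1108674 to 1124415 in control and from 1116144 to 1158667 in ethanol rats. The summed erythroid markers (4 of 6 on the array) were higher in every ethanol rat, at 25617 to 33312 against 15433 to 22883. So were the adipocyte markers (4 of 6), at 7897 to 9102 against 4522 to 6836, and the duct markers (3 of 6) were lower, at 7826 to 8455 against 9080 to 10071. None of the erythroid, adipocyte or duct markers on the array was at or below 0 on any array. Of these, 4 erythroid, 3 adipocyte and 2 duct markers were tested, and none passed in limma. At an unadjusted limma p under 0.05 there were 3 erythroid and 2 adipocyte markers, all higher, and 0 duct markers, against 18.8% of all genes. A sum gives most weight to its brightest markers, which for the duct were Muc1 and Krt7. The part of these markers in the results below was not tested.

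Mrpl9 and Gfer fell in the ethanol rats, and no other member passed. A change here is an adjusted p under 0.05 in limma, by the Benjamini-Hochberg method over all 9520 probe sets tested. By that rule 0.436% of the 7106 genes tested changed in either direction, 0.366% fell and 0.0704% rose, and 2 members fell and 0 rose. Both genes were known from earlier results of these data when the members were chosen, so this count says nothing about the group.

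The transcript of mrpl9, a protein of the large ribosomal subunit spelled in lower case on the platform, was at an intensity of 3668, 3887 and 3445 in control replicates 1, 2 and 3 and at 1659, 1034 and 1677 in ethanol replicates 1, 2 and 3. The lowest control rat lay above the highest ethanol rat by a wide margin, and ethanol replicate 2 was the lowest of all. The log2 change, ethanol minus control on the log2(intensity + 50) scale used throughout, was -1.33 (SE 0.20, 95% interval -1.80 to -0.87, limma adjusted p = 0.0448), a 2.52-fold fall.

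Gfer, the oxidase that reoxidises Chchd4 and passes electrons on to cytochrome c, was at 804, 824 and 1036 in control rats and at 267, 448 and 284 in ethanol rats. The groups did not overlap, and here ethanol replicate 2 was the highest of its group. The log2 change was -1.31 (SE 0.21, 95% interval -1.79 to -0.84, limma adjusted p = 0.0471), a 2.49-fold fall.

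Both calls lie close to the threshold. With 1 array left out the limma adjusted p of mrpl9 ran from 0.0543 to 0.194, so that it passed in none of these 6 fits, and that of Gfer from 0.0404 to 0.192, under the threshold only without ethanol replicate 2, while the log2 changes stayed between -1.45 and -1.11 for mrpl9 and between -1.52 and -1.19 for Gfer. With the replicate number as a block neither passed in limma. At an unadjusted limma p under 0.05 that fit held 13 of the 87 tested members, against 1543 of all 9520 probe sets. The members are counted by gene and the background by probe set, so the units are unlike. With the filter set on mean intensity mrpl9 passed (limma adjusted p = 0.0492) and Gfer did not (limma adjusted p = 0.0519).

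**Figure D1:**
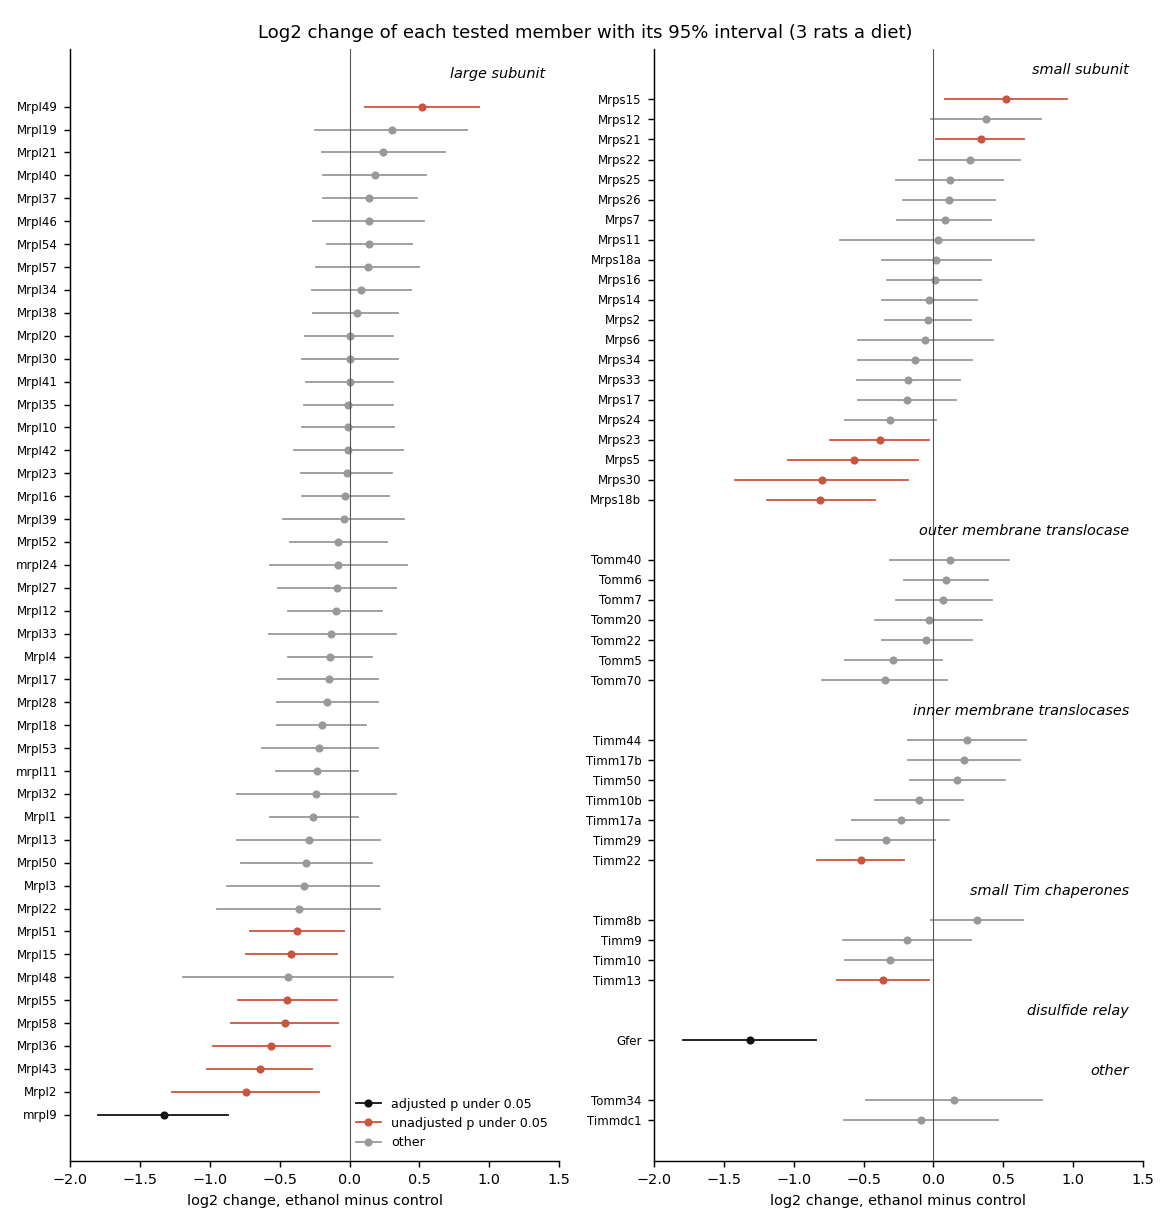
Log2 change (ethanol minus control) of each of the 87 tested members on the x axis, by role, with bars for the 95% interval from limma over 3 control and 3 ethanol rats. Mrpl9 (-1.33) and Gfer (-1.31) stand to the left of every other member, the next being Mrps18b at -0.81.

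Over the tested members, with mrpl9 and Gfer counted, more changes lay below 0 than above. Of the 87 tested, 58 had a log2 change below 0 (66.7%), against 51.4% of all genes tested. At an unadjusted limma p under 0.05 there were 18 members, or 20.7%, against 18.8% of all genes, which is near the background. In the lower direction there were 15, or 17.2% against 11.2%, and in the higher direction 3, or 3.45% against 7.66%. The 3 ethanol rats lay outside the range of the 3 control rats for 28 members, or 32.2% against 26.4% of all genes. For 22 of them ethanol was lower (25.3% against 15.4%) and for 6 higher (6.90% against 11%). These shares are descriptions of a list chosen with earlier results known. The members' probe sets were also brighter than those of all genes tested (median of the mean intensities 1575 against 1053). Their median standard error was 0.16 against 0.18. Whether this raised the shares was not tested.

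**Figure D2:**
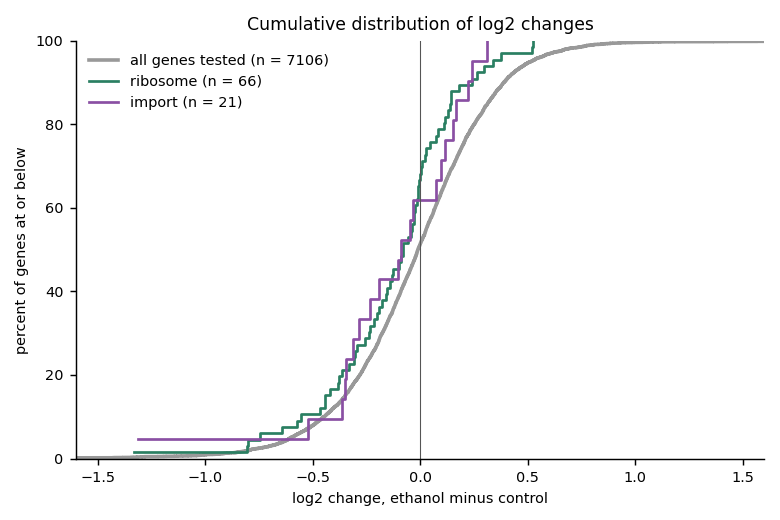
Cumulative percent of genes (y axis) at or below a log2 change (x axis) for the 66 ribosomal members, the 21 import members and the 7106 genes tested. The ribosomal and import curves run close to each other and, over most of their range, to the left of the curve of all genes, with medians of -0.08, -0.09 and -0.01.

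The ribosome and the import machinery had like medians. The median log2 change was -0.08 over the 66 ribosomal members (quartiles -0.30 and 0.04) and -0.09 over the 21 import members (quartiles -0.31 and 0.12), beside -0.01 over all genes tested (quartiles -0.23 and 0.20). The difference between the medians was 0.01, and leaving out 1 array moved it from -0.11 to 0.09. A change below 0 was seen for 45 of 66 ribosomal members (68.2%) and for 13 of 21 import members (61.9%). At an unadjusted limma p under 0.05, 12 ribosomal members were lower (18.2%, against 11.2% of all genes) and 3 higher (4.55% against 7.66%). Of the import members 3 were lower (14.3%) and 0 higher, so 14.3% in either direction, below the 18.8% of all genes.

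On single arrays the members did not move as 1 block. The group level on an array is the median over members of the log2 value minus the gene's mean over the 6 arrays. For the 66 ribosomal members it was 0.039, 0.090 and 0.032 in control replicates 1, 2 and 3, and -0.070, 0.044 and -0.122 in ethanol replicates 1, 2 and 3. For the 21 import members it was 0.118, 0.015 and 0.059 in control rats and -0.115, 0.015 and -0.091 in ethanol rats. Ethanol replicates 1 and 3 were below every control rat in both groups, while ethanol replicate 2 lay among the control rats for the ribosome and level with the lowest of them for import. Over all 7106 genes tested the same measure stayed between -0.012 and 0.022. For the Mrps genes alone ethanol replicate 2 was at 0.159, above all control rats (0.002 to 0.081), while ethanol replicates 1 and 3 were at -0.077 and -0.101. For the Mrpl genes alone it was at 0.012, below all control rats (0.049 to 0.116), as were ethanol replicates 1 and 3 at -0.069 and -0.136. The import median was -0.01 without ethanol replicate 1 or without control replicate 1, and -0.16 without control replicate 3, so its size rested on single arrays.

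**Figure D3:**
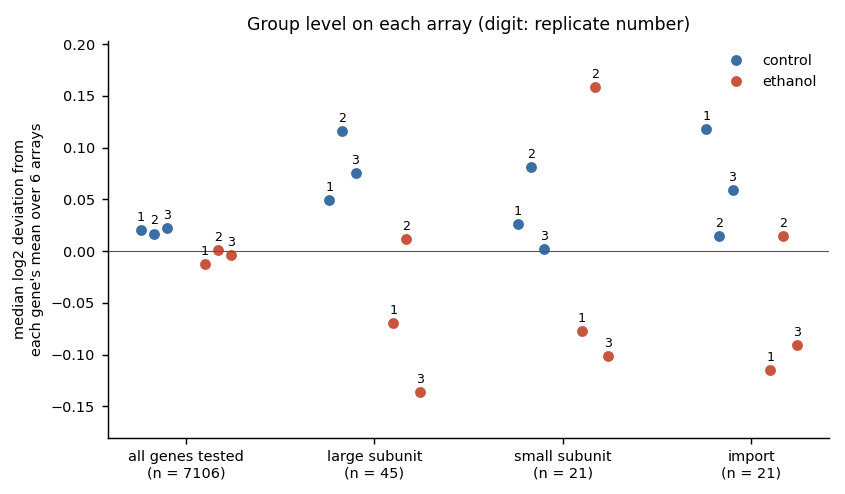
Median log2 deviation from each gene's mean over 6 arrays (y axis), for all genes tested, the Mrpl genes, the Mrps genes and the import members, with 1 point a rat and the replicate number above it. Ethanol replicates 1 and 3 sit below the control rats in the 3 member groups, and ethanol replicate 2 sits above those replicates. It is at 0.159 for the Mrps genes, above all control rats, and at 0.012 for the Mrpl genes, below all control rats.

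Among the proteins of the large subunit, 45 of 48 were tested, and 34 of them (75.6%, against 51.4% of all genes) had a change below 0, with a median of -0.10. At an unadjusted limma p under 0.05 there were 20% of them against 18.8% of all genes, 17.8% lower against 11.2% and 2.22% higher against 7.66%. Besides mrpl9 these were 7 lower and 1 higher, and none of these 8 passed after adjustment (limma adjusted p from 0.118 to 0.223).

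Mrpl2, a core protein of the subunit near its catalytic centre, was at 793, 498 and 456 in control and at 250, 355 and 359 in ethanol rats (log2 change -0.74, SE 0.23). Control replicate 1 stood well above the other rats, and the groups did not overlap. Mrpl43, a protein of the mitochondrial ribosome with no bacterial counterpart, was at 3872, 3363 and 2855 against 2106, 2364 and 1905 (-0.64, SE 0.17). Mrpl36, the counterpart of a small bacterial ribosomal protein, was at 2020, 2093 and 1596 against 1293, 1508 and 1047 (-0.56, SE 0.18). In both the ethanol rats were all below the control rats, by a narrow gap for Mrpl36.

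Mrpl58, also called Ict1, is a hydrolase within the ribosome that frees stalled peptides. It was at 956, 1014 and 1239 in control and at 828, 816 and 640 in ethanol rats (log2 change -0.46, SE 0.17). Mrpl55 was at 1603, 1820 and 1828 against 1194, 1500 and 1143 (-0.45, SE 0.16), and Mrpl15 at 4310, 4832 and 4081 against 3034, 3385 and 3419 (-0.42, SE 0.14). Each of these had its ethanol rats below its control rats. Mrpl51 was at 1485, 1374 and 1178 against 987, 1050 and 1027 (-0.38, SE 0.14), with the ethanol rats close together. Its dimmer probe sets gave -0.48, -0.19 and 0.12, so they did not share 1 direction.

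Mrpl49 was the large subunit protein with the largest increase among those tested, at 806, 652 and 627 in control and 1141, 819 and 1119 in ethanol rats (log2 change 0.52, SE 0.18, limma adjusted p = 0.181). Ethanol replicate 2 lay only just above control replicate 1. Its start lies head to head, on the opposite strand, with that of Fau, which encodes a cytosolic ribosomal protein. A dimmer, untested probe set of Mrpl49 gave 0.10 (SE 0.23).

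Mrpl57 was at 3942, 4083 and 4957 in control and 5408, 4216 and 4599 in ethanol rats (log2 change 0.13, SE 0.16). The diets overlapped. A second probe set of Mrpl57 gave the opposite sign, at -0.48 (SE 0.17), with values of 1250, 1445 and 1303 against 994, 1106 and 746. The direction of this gene is therefore not settled by the array.

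The other 36 large subunit members had an unadjusted limma p of 0.05 or more. Among them, Mrpl1 (log2 change -0.26), mrpl11 (-0.23), Mrpl18 (-0.20) and Mrpl4 (-0.14) had every ethanol rat below every control rat, and Mrpl54 (0.14) every ethanol rat above. Mrpl12, which is known to bind the mitochondrial RNA polymerase, was at 2300, 1998 and 2468 against 1939, 2187 and 2159, a change of -0.10 with a 95% interval from -0.44 to 0.23. Mrpl20 (2757, 2773 and 2711 against 2929, 2813 and 2492) and Mrpl41 (1755, 1644 and 1839 against 1670, 1841 and 1722) had changes whose 95% intervals ran from -0.32 to 0.31 and from -0.31 to 0.31. Of the 45 tested, Mrpl48 had the largest standard error, with ethanol rats at 245, 590 and 654 (log2 change -0.44, SE 0.33).

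**Figure D4:**
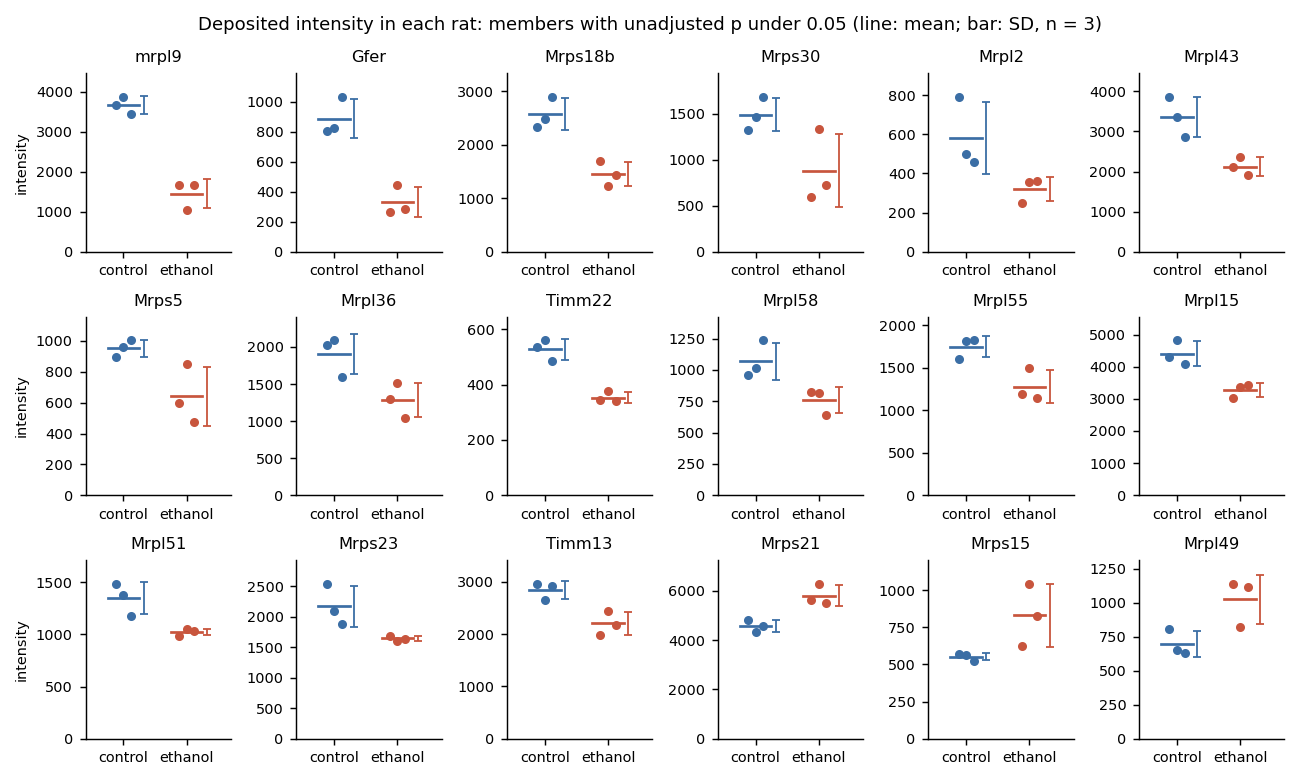
Deposited intensity (y axis, from 0) in each control and ethanol rat for the 18 members with an unadjusted p under 0.05, ordered by log2 change, with the mean as a line and the SD as a bar (n = 3). The diets do not overlap in 17 of the 18 panels, and in that of Mrps30 ethanol replicate 2 (1331) lies within the control range. The panels were chosen by p-value on these same values, which favours a lack of overlap. Over all 87 tested members 32.2% did not overlap, against 26.4% of all genes.

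Of the 26 genes with Mrps symbols, 21 were tested, 11 of them below 0 (52.4%, near the 51.4% of all genes), with a median of -0.03. The symbols name the small subunit, though Mrps30 and Mrps18a are known to sit in the large subunit of the mammalian mitochondrial ribosome. At an unadjusted limma p under 0.05, 4 were lower (19.0% against 11.2% of all genes) and 2 higher (9.52% against 7.66%), and none passed after adjustment.

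Mrps18b, a variant of the S18 protein of the small subunit, was at 2335, 2480 and 2904 in control and at 1694, 1232 and 1443 in ethanol rats. All ethanol rats were below all control rats, ethanol replicate 2 being the lowest. The log2 change was -0.81 (SE 0.17, 95% interval -1.19 to -0.42, limma adjusted p = 0.0865). It passed in 2 of 16 alternative fits. These were a filter at the 60th percentile (limma adjusted p = 0.0457) and a variance trend (limma adjusted p = 0.0291). It did not pass without a filter (limma adjusted p = 0.203) or with 1 array left out (limma adjusted p from 0.0775 to 0.247). The gene that starts on the other strand beside it, Ppp1r10, had a log2 change of 0.29 (SE 0.23).

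Mrps30 was at 1326, 1463 and 1690 in control and at 592, 1331 and 723 in ethanol rats (log2 change -0.80, SE 0.27). Ethanol replicate 2 was well above ethanol replicates 1 and 3 and lay among the control rats. With 1 array left out the log2 change of Mrps30 ran from -1.12 to -0.57. The first was without ethanol replicate 2 (limma adjusted p = 0.0930), the second without ethanol replicate 1 (limma adjusted p = 0.311). Mrps5, of the core of the small subunit, was at 895, 958 and 1006 against 599, 848 and 476 (-0.57, SE 0.20), again with ethanol replicate 2 the highest of its group. Mrps23 was at 2547, 2099 and 1881 against 1694, 1603 and 1644 (-0.38, SE 0.16), its control rats spread widely and its ethanol rats close together.

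At an unadjusted limma p under 0.05, 2 Mrps genes were higher in ethanol rats (9.52%, near the 7.66% of all genes). Mrps15 was at 570, 566 and 523 in control and at 623, 1044 and 826 in ethanol rats (log2 change 0.52, SE 0.19, limma adjusted p = 0.206). The control rats were close together and the ethanol rats spread, all above them. Mrps21 was at 4807, 4334 and 4582 against 5614, 6286 and 5501 (0.34, SE 0.14, limma adjusted p = 0.241), with no overlap. Mrps12, the counterpart of the bacterial decoding-centre protein S12, was at 2453, 2315 and 2977 against 3715, 3592 and 2811 (0.38, SE 0.17), and ethanol replicate 3 lay within the control range. Mrps24, at 5343, 4773 and 5124 against 3699, 4440 and 4185, had a change of -0.31 (SE 0.14) and no overlap. Mrps18a, a paralog of Mrps18b, was at 0.02 (95% interval -0.37 to 0.41).

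In the translocase of the outer membrane all 7 members were tested, and none had an unadjusted limma p under 0.05, against 18.8% of all genes. With 7 genes this count cannot be told apart from that share. Log2 changes ran from -0.35 to 0.12 with a median of -0.03. The channel protein Tomm40 was at 1994, 2569 and 2705 in control and 2830, 2927 and 2144 in ethanol rats (0.12, 95% interval -0.31 to 0.54). Of the receptors, Tomm20 was at -0.03 (95% interval -0.42 to 0.35; its other probe set -0.31), Tomm22 at -0.05 (-0.37 to 0.28) and Tomm70 at -0.35 (-0.80 to 0.10). The small subunit Tomm6 was at 7060, 7123 and 7010 against 7136, 7618 and 7894 (0.09, SE 0.13), so that every ethanol rat was above every control rat by a difference that limma did not call. Tomm7 (0.07) and Tomm5 (-0.29) overlapped between diets.

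In the translocases of the inner membrane, 7 of 8 members were tested. Timm22, the channel of the carrier translocase, was at 537, 561 and 487 in control and at 343, 375 and 341 in ethanol rats. The rats of each diet were close together and the diets apart. The log2 change was -0.52 (SE 0.14, 95% interval -0.83 to -0.21, limma adjusted p = 0.122), and it was -0.43 (SE 0.37, limma adjusted p = 0.561) with both of its probe sets averaged, no longer under 0.05 before adjustment. Timm29, another subunit of that translocase, was at 3114, 2700 and 3031 against 2534, 1982 and 2443 (-0.34, SE 0.15), also with no overlap. Timm10b, a small Tim protein bound to it, was at -0.10 (95% interval -0.42 to 0.21).

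The presequence translocase gave changes of both signs. Timm17a was at 1824, 1941 and 1883 in control and 1595, 1821 and 1391 in ethanol rats (log2 change -0.23, SE 0.15), the ethanol rats all lower but replicate 2 only just. Its paralog Timm17b was at 832, 704 and 632 against 693, 960 and 905 (0.22, SE 0.18). The receptor Timm50 (0.17, SE 0.15) and Timm44 (0.24, SE 0.18), which anchors the import motor, also overlapped between diets. A probe set annotated to several symbols with the Timm prefix was left out by the rule for members.

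The small Tim chaperones, which work as hexamers of alternating partners, did not share a direction. Timm13 was at 2966, 2643 and 2916 in control and at 1992, 2441 and 2177 in ethanol rats (log2 change -0.36, SE 0.14, limma adjusted p = 0.235). Timm10 was at 1789, 1621 and 1933 against 1419, 1445 and 1398 (-0.31, SE 0.14), and its partner Timm9 at 1228, 1237 and 1165 against 1067, 1378 and 787 (-0.19, SE 0.20). Timm8b went the other way, at 2276, 2098 and 2126 against 2397, 2949 and 2769 (0.31, SE 0.14, limma adjusted p = 0.297). The diets did not overlap for Timm13, Timm10 and Timm8b, and did for Timm9. The promoter of Timm8b lies head to head with that of Sdhd, a subunit of complex II, which was at 0.05 (SE 0.17).

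Of the members that carry an import-like symbol but act elsewhere, Timmdc1, an assembly factor of complex I, was at -0.09 (95% interval -0.64 to 0.46) and Tomm34, a co-chaperone of the cytosol, at 0.15 (-0.48 to 0.78).

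The 11 members below the filter were read in the fit without a filter, where no member passed in limma. At an unadjusted limma p under 0.05 that fit held 25 of the 98 members, against 2263 of all 15866 probe sets. A member is read on its probe set of highest mean, while the second count holds every probe set, dim ones too. The counts are therefore in unlike units. Mrpl14, of the large subunit, was at 171, 235 and 138 in control and at 690, 717 and 376 in ethanol rats. Every ethanol rat was above every control rat, and the log2 change of 1.45 (SE 0.29, 95% interval 0.71 to 2.19) was the largest increase among the 98 members. Timm8a1 was at 383, 401 and 301 against 296, 221 and 253 (-0.42, SE 0.15), and its other probe set had the opposite sign (0.19, SE 0.28). Mrps28 (354, 304 and 43 against -195, 102 and 28) and Tomm40l (253, -17 and 236 against 193, 130 and -28) had values below 0 and are near background. The remaining 7, Mrpl44, Mrpl45, Mrps9, Mrps27, Mrps31, Mrps35 and Timm21, overlapped between diets, with changes from -0.70 to 0.31. Just above the filter lay Timm22 and Mrpl2, with mean intensities of 441 and 452, and just below it Mrps9 and Mrpl14, at 376 and 388.

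Where a gene had several probe sets, they did not always share a sign. There were 12 members with 2 to 4 probe sets each. In 7 of them at least 1 other probe set had the opposite sign to the brightest (Mrpl37, Mrpl50, Mrpl51, Mrpl52, Mrpl57, Mrps26 and Timm8a1). Some of these sign differences lay within the errors, as for Mrpl52, at -0.08 (SE 0.15) and 0.13 (SE 0.35). The differences reached 0.97 on the log2 scale, for Mrps26, whose other probe set is near background. Mrpl9, Gfer and Mrps18b are each read by 1 probe set, so the array holds no second reading of them.

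Other genes of mitochondrial translation were read from a list of 51 symbols. The list holds Ict1, another name of the member Mrpl58, but no gene was tested under that name. Of the 51, 26 were read by the array and 15 were tested, none of them a member under the rule. None passed in limma, 4 were lower and 0 higher at an unadjusted p under 0.05 (26.7% lower against 11.2% of all genes), and the median was -0.05. The 4 were Aurkaip1, at 1068, 1047 and 1026 in control and 828, 717 and 503 in ethanol rats (log2 change -0.61, SE 0.19), Chchd1 (-0.56, SE 0.20), Ptcd3 (-0.53, SE 0.21) and Mtg1 (-0.34, SE 0.13). Aurkaip1, Chchd1 and Ptcd3 are proteins of the small mitochondrial subunit that do not carry an Mrps symbol, and Mtg1 is a GTPase of large subunit assembly. Dap3, a further protein of the small subunit, was at 965, 862 and 1034 against 1492, 1067 and 1225 (0.38, SE 0.17), all ethanol rats above all control rats. It and the elongation factor Tufm (-0.14, SE 0.16) were chosen after their values were seen.

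Of 30 further genes of import, folding and processing, 25 were read by the array. All 25 were tested, and none passed in limma. At an unadjusted p under 0.05, 5 were lower (20% against 11.2% of all genes) and 1 higher (4.0% against 7.66%), and the median was -0.03. Immp1l, a peptidase of the inner membrane, was at 846, 734 and 576 in control and 302, 388 and 367 in ethanol rats (log2 change -0.92, SE 0.18, limma adjusted p = 0.0790). Grpel1, the nucleotide exchange factor of the import motor, was at 3204, 3184 and 2906 against 1982, 2351 and 1583 (-0.66, SE 0.17, limma adjusted p = 0.124). Oxa1l, which inserts newly made proteins into the inner membrane, was at -0.44 (SE 0.14), and the inner membrane protease Yme1l1 at -0.41 (SE 0.14). Chosen after their values were seen, Phb2 was at -0.42 (SE 0.16) and Romo1, a small inner membrane protein, at 0.50 (SE 0.17).

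Around Gfer, 16 genes linked to the disulfide relay or to proteins of the intermembrane space were listed. The array read 11 of them, all 11 were tested, and none passed in limma. With p left unadjusted 2 were lower (18.2% against 11.2% of all genes) and 1 higher (9.09% against 7.66%), and the median was 0.15. Cox17, a copper chaperone and client of the relay, was at 484, 435 and 709 in control and 845, 1154 and 900 in ethanol rats (log2 change 0.79, SE 0.21, limma adjusted p = 0.122). Sod1 was at -0.48 (SE 0.16), Aifm1, a partner of Chchd4, at -0.49 (SE 0.21) and Cmc2 at 0.39 (SE 0.17). Chchd4 itself was not among the genes read by the array.

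Among 19 factors of mitochondrial DNA expression and biogenesis, 11 were read by the array and 9 were tested. Of these 9, 8 were below 0 (88.9%, against 51.4% of all genes), with a median of -0.25. None passed in limma. With p left unadjusted 1 was lower (11.1%, at the background of 11.2%) and 0 higher, namely Polg2, the accessory subunit of the mitochondrial DNA polymerase, at 639, 670 and 512 against 426, 349 and 394 (log2 change -0.58, SE 0.16, limma adjusted p = 0.133). The DNA-binding proteins Ssbp1 (-0.32, SE 0.18) and Tfam (-0.25, SE 0.15) had every ethanol rat below every control rat, and the transcription factor Mterf1 (-0.25, SE 0.17) did not.

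**Figure D5:**
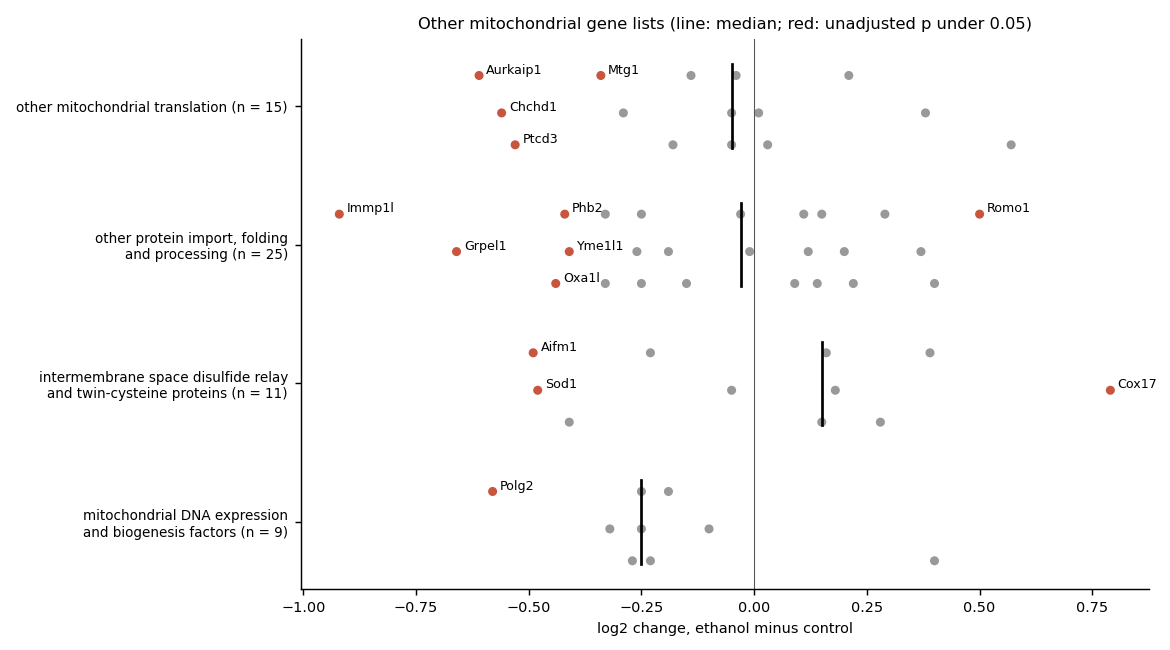
Log2 change (x axis) of each tested gene in the 4 other mitochondrial lists, with the list's median as a black line and red points for an unadjusted p under 0.05. The medians are -0.05, -0.03, 0.15 and -0.25 from top to bottom, and Immp1l (-0.92) and Cox17 (0.79) lie farthest out.

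Many members start close to another gene. Of the 82 with a promoter, tested or not, 21 (25.6%) had a gene on the opposite strand whose start lay upstream within 1000 bases. The share was 13.9% over all genes of the array with a promoter and 15.2% over the tested ones. The pair Mrpl46 and Mrps11 joins a large and a small subunit protein in this way, and their log2 changes were 0.14 (SE 0.17) and 0.03 (SE 0.30). Mrpl41 was at 0.00 with a 95% interval from -0.31 to 0.31 while its neighbour Pnpla7 was at -0.53 (SE 0.13, limma adjusted p = 0.107). Neither mrpl9 nor Gfer had such a neighbour in the table.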

How the data were processed

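Total RNA was taken from pancreas lysate with a column kit and labelled as biotinylated cRNA, per the labels' protocols. What the authors deposited for each array is a linear intensity for every probe set. How these were scanned, summarised and normalized is not stated in the labels. Each array holds 931 to 949 values below 0, and a common distribution hides differences in total RNA.

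Of 15923 probe sets, 57 controls were left out. The platform annotation, older than the reference, pairs 12783 probe sets with 1 symbol. The 312 with several and the 2771 without one were tested but not named. All 98 members' gene IDs were in RefSeq (GRCr8). Values below 0 were set to 0, 50 was added and log2 taken, which understates changes of dim probe sets. The test, on probe sets whose mean log2 value reached the 40th percentile, was limma 3.58.1 in R 4.3.3 (2 groups, empirical Bayes), adjusted over all 9520. A gene is read on its probe set of highest mean. Probe sets differ in affinity, so an intensity is not a level to set against that of another gene.

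Members, lists and motifs were chosen with earlier results of these data known, and the NRF-1 motif was shortened by 1 letter late in the work. Every member may be named; values on each array are given for those with an unadjusted p under 0.05 and for the probe set of highest mean in each role, which only serves to choose genes, and for others chosen after their values were seen. Of each other list the 4 genes of smallest p are named. As alternatives the added constant was 20 or 100, arrays were quantile normalized or set to equal medians, and the filter was removed or raised. Others were a replicate block, a variance trend, averaged probe sets, an adjusted p under 0.10 and each array left out; a filter on mean intensity and the medians without the members that passed were added after seeing the data. The procedure was tested on simulated data. The other marker lists (islet, stellate and fibroblast, endothelial, lymphocyte, macrophage and neutrophil) had summed intensities that overlapped between diets.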

Additional observations from a re-analysis of the deposited data

How the results depend on the processing

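The count of members that passed in limma was 2, mrpl9 and Gfer. It was 2 with a constant of 100, quantile normalization, equal medians and averaged probe sets, and also with a filter at the 60th percentile, where Gfer was not tested and Mrps18b passed. It was 3 at an adjusted p under 0.10, 4 with a variance trend (Mrps18b and Mrpl43 added) and 1 with the filter on mean intensity. It was 0 with a constant of 20, without a filter and with the replicate block. At an unadjusted limma p under 0.05 these fits held, in that order, 18 of 87, 25 of 98 and 13 of 87 members. Of all probe sets, a unit unlike the genes counted as members, these fits held 1733 of 9520, 2263 of 15866 and 1543 of 9520. With 1 array left out the count of members that passed was 0 to 1. Quantile normalization and equal medians could move this count little, as the arrays already shared nearly 1 distribution. Averaging leaves mrpl9 and Gfer on their only probe set. The same count in those settings is therefore no further evidence. Over all probe sets the count was 39. It was 0 without a filter (2263 at an unadjusted p under 0.05), 6 with the replicate block, 134 with a filter at the 60th percentile, 228 at an adjusted p under 0.10, 249 with a variance trend, and 2 to 38 with 1 array left out. The deviations of same-numbered arrays from the mean of their diet correlated at -0.0295, 0.0259 and -0.138. No control array correlated best with the ethanol array of its own number. With 3 arrays a diet these values cannot settle whether the replicate numbers pair the rats. With 1 array left out the median change ran from -0.13 to -0.04 for the ribosome and from -0.16 to -0.01 for import, and their difference from -0.11 to 0.09. The 18 members with an unadjusted p under 0.05 kept their sign in every alternative run, and of the other 69, 26 changed sign in at least 1. Those 18 were chosen on these same arrays for changes large against their error. Several alternatives also leave the change itself as it is, so the kept sign is no further evidence. The cause of the differences between settings was not tested. With 3 arrays a diet the median standard error of a member's log2 change was 0.16, and their number limits the precision.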
